A study of Mus musculus with 5 samples.

Results

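RANKL, encoded by Tnfsf11, is a membrane-bound cytokine of the TNF family. It binds RANK, encoded by Tnfrsf11a, on precursors of the monocyte lineage and drives them to become bone-resorbing osteoclasts. Osteoprotegerin (OPG), encoded by Tnfrsf11b, is a soluble receptor without a membrane anchor that captures RANKL and keeps it from RANK. Stromal cells, osteoblasts and activated T cells are known sources of RANKL, stromal cells and osteoblasts also release OPG, and the balance of the pair sets how much bone is resorbed. These 3 genes are described here by all 6 probe sets that the array annotation gives to one of them alone, 2 for each gene, out of 45101 probe sets in all.

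The arrays compared mRNAs bound by AUF1, an RNA-binding protein that recognizes AU-rich elements and is known from the turnover of short-lived mRNAs. NIH-3T3 cells, a line of mouse embryonic fibroblasts, had been infected with retroviruses carrying pSLHGC-MYC-AUF1 p42 and pBSwitch and selected with blasticidin in the presence of mifepristone, so that all 5 samples came from cells with the switch system, their own AUF1 and the vector for myc-tagged AUF1 p42. In 2 samples the cells were labelled as induced with 1 nM mifepristone for 24 h, in 2 they were labelled as not induced, and both kinds were lysed and passed over anti-c-myc agarose beads to collect ribonucleoproteins (RNP-IP). The fifth sample was total RNA of these cells, and whether they had been induced was not stated. The sources call the RNP-IPs of a group independent but do not name separate cultures, so all p-values measure the spread between these samples.

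The members were proposed with results of these arrays in view, above all the difference between the labelled-induced RNP-IPs and the other 3 arrays. For the 6 probe sets that difference is therefore given as a description, without a test. The labelled-uninduced RNP-IPs against total RNA form the comparison that did not enter the choice, and there the members were tested.

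Values are log2 signals after robust multiarray averaging (RMA), each probe set on a scale of its own, so that levels were not compared between genes. The same mass of RNA was labelled for every sample, so a signal reads a share of that RNA and not an amount on the beads. A working background limit of 5.15 was taken as the 95th percentile of 38 probe sets for 24 genes of other organs (albumin, insulin and the like), and a signal below it was treated as not well above background. Between 12524 and 13050 probe sets per array lay above it. An array reads the RNA of all cells together, so that fewer cells with an mRNA and less of it per cell cannot be told apart. All 10 fibroblast markers were above the limit in every array, among them Col1a1, Col3a1 and Vim. Hnrnpd, the gene of AUF1 itself, was lower in the labelled-induced RNP-IPs. Its brightest probe set read 6.72 and 7.39 there, 11.35 and 11.85 in the labelled-uninduced ones and 10.60 in total RNA. How this probe set relates to the vector insert was not stated, so its signal cannot check the labels. The RNP-IPs are named by those labels. The 5' Gapdh control read 8.18 and 4.24 in RNP-IPs 1 and 2 labelled induced, 3.65 and 7.81 in RNP-IPs 1 and 2 labelled uninduced and 6.93 in total RNA. The 3' Gapdh control read 11.90 and 9.71, then 9.70 and 12.11, and 12.32 in the same order. What lay behind these differences was not tested.

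The mRNA of the ligand stood out in both labelled-induced RNP-IPs. Probe set 1419083_at of Tnfsf11 read 7.99 and 8.12 there, 3.64 and 3.27 in the labelled-uninduced RNP-IPs and 3.06 in total RNA. The labelled-induced RNP-IPs were thus well above background and lay 4.35 log2 units above the highest control, while the 3 controls were all below the limit. The means were 8.05 ± 0.09 (SD, n = 2) and 3.33 ± 0.29 (SD, n = 3) on the log2 scale.

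The measured log2 difference of Tnfsf11 between labelled-induced RNP-IPs and the 3 controls was 4.73 (SE 0.20), a 26.5-fold higher measured signal. Because the controls were not well above background, the difference that the arrays bound is at least 7.47-fold, computed with the background limit in place of the dim values. The high signal was shared by RNP-IP 1 and RNP-IP 2 labelled induced, which differed by 0.13 log2 units in Tnfsf11.

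The second probe set of the ligand did not share this pattern. Probe set 1451944_a_at of Tnfsf11 read 3.36 and 3.29 in the labelled-induced RNP-IPs, 3.35 and 3.25 in the labelled-uninduced ones and 3.15 in total RNA. All 5 arrays were below the background limit and the groups overlapped. The log2 difference of 0.07 (SE 0.08) thus compares signals that are not well above background. The annotation ties 1419083_at to the RefSeq mRNA of Tnfsf11 and 1451944_a_at to another Tnfsf11 cDNA, and where either lies along the mRNA is not given in the tables used here.

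**Figure D1:**
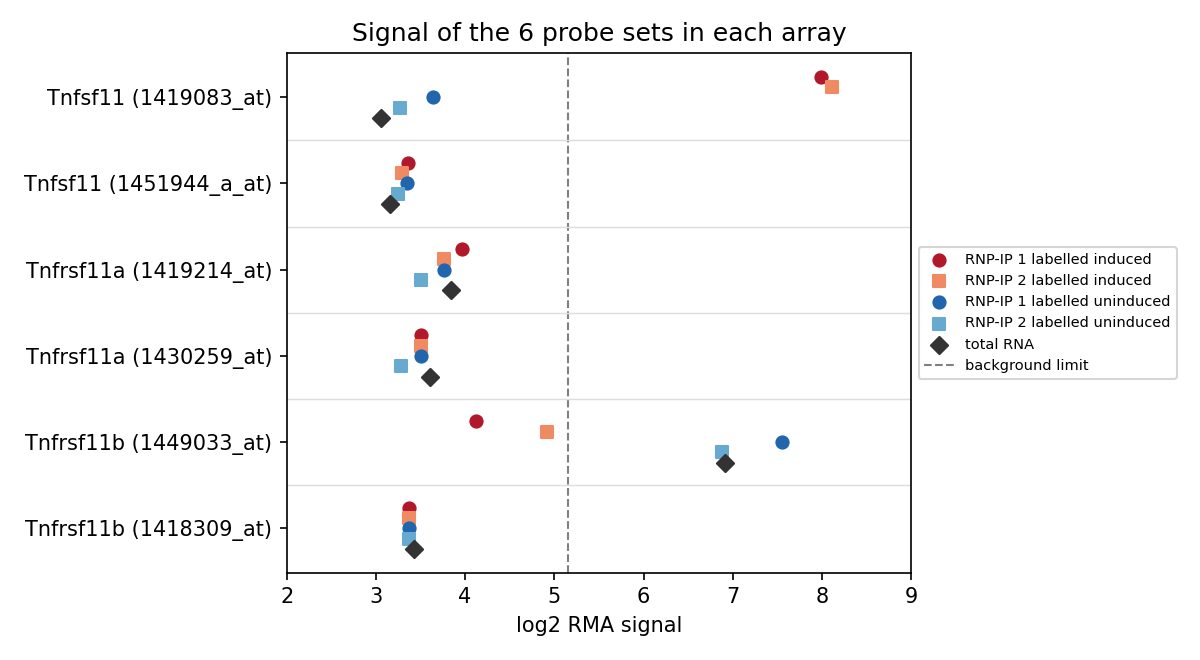
Log2 RMA signal (horizontal axis) of the 6 probe sets of Tnfsf11 (RANKL), Tnfrsf11a (RANK) and Tnfrsf11b (OPG), each marker 1 array and the dashed line the background limit of 5.15. Probe set 1419083_at of Tnfsf11 is above the limit in the 2 labelled-induced RNP-IPs alone, 1449033_at of Tnfrsf11b in the 3 controls alone, and the other 4 probe sets are below it in all 5 arrays.

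The receptor RANK, a transmembrane protein that signals through TRAF adaptors, was not detected well above background in any array. Probe set 1419214_at of Tnfrsf11a read 3.97 and 3.76 in the labelled-induced RNP-IPs, 3.76 and 3.51 in the labelled-uninduced ones and 3.85 in total RNA. Its second probe set, 1430259_at, read 3.51 and 3.51, then 3.51 and 3.28, and 3.60 in the same order. The groups overlapped on both probe sets of Tnfrsf11a, with log2 differences of 0.16 (SE 0.14) and 0.05 (SE 0.12), and no fold is given since both sides were below the limit. Equal values in several arrays, as in 1430259_at, were common in these data.

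The signal of the decoy receptor ran opposite to that of the ligand. Probe set 1449033_at of Tnfrsf11b read 4.12 and 4.92 in the labelled-induced RNP-IPs, 7.55 and 6.88 in the labelled-uninduced ones and 6.91 in total RNA. Here the 3 controls were well above background, both labelled-induced RNP-IPs fell below the limit, and 1.97 log2 units separated the nearest values. OPG mRNA was thus measured in the RNA of the cells and in the labelled-uninduced RNP-IPs at much the same signal.

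The log2 difference of Tnfrsf11b was -2.60 (SE 0.36), with means of 4.52 ± 0.57 (SD, n = 2) and 7.11 ± 0.38 (SD, n = 3). The measured signal was 6.05-fold lower in the labelled-induced RNP-IPs, and at least 3.89-fold lower with the background limit in place of their dim values. The labelled-induced RNP-IPs differed from each other by 0.80 log2 units, more than in Tnfsf11, and RNP-IP 1 was the lower of them. The second probe set, 1418309_at, read 3.37 in all 4 RNP-IPs and 3.43 in total RNA, so it was below background throughout and its log2 difference of -0.02 (SE 0.05) compares signals that were not well above background.

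Of the 6 probe sets, 1 lay at least 3-fold higher and 1 at least 3-fold lower in the labelled-induced RNP-IPs, and both were the only probe set of their gene above the limit in any array. Over all 45101 probe sets 1.3% were at least 3-fold higher and 1.94% at least 3-fold lower. With a Benjamini-Hochberg adjusted p under 0.5 from limma added, the study's own rule, the shares were 1.16% and 1.66%. In 11% of all probe sets both labelled-induced RNP-IPs lay above the 3 controls, and in 10.6% below them. These shares stand beside the counts of the members as their background, and since the members were chosen on this comparison nothing further is read from them.

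The signals of the ligand and of the decoy receptor moved apart. The log2 signal of Tnfsf11 minus that of Tnfrsf11b, taken relative to the same difference in total RNA so that the scale of each probe set cancels, was 7.72 and 7.05 in the labelled-induced RNP-IPs and -0.06 and 0.24 in the labelled-uninduced ones. With every dim signal raised to the background limit, the shift in the labelled-induced RNP-IPs was at least 24.2-fold and 26.4-fold. This shift joins the differences of Tnfsf11 and Tnfrsf11b given above, on which the members were chosen, so it is no separate reading. It describes shares of the RNA collected on beads and was not a measure of RANKL and OPG made by the cells.

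Against each kind of control separately the members gave the same picture. Tnfsf11 on 1419083_at was 4.60 log2 units (SE 0.17) above the labelled-uninduced RNP-IPs and 4.99 (SE 0.20) above total RNA. Tnfrsf11b on 1449033_at had log2 differences of -2.70 (SE 0.44) against the first and -2.39 (SE 0.53) against the second. For Tnfrsf11a on 1419214_at the log2 differences were 0.23 (SE 0.14) and 0.02 (SE 0.17), all signals being below the limit. The comparisons share the labelled-induced RNP-IPs, so they are not separate readings of them.

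**Figure D2:**
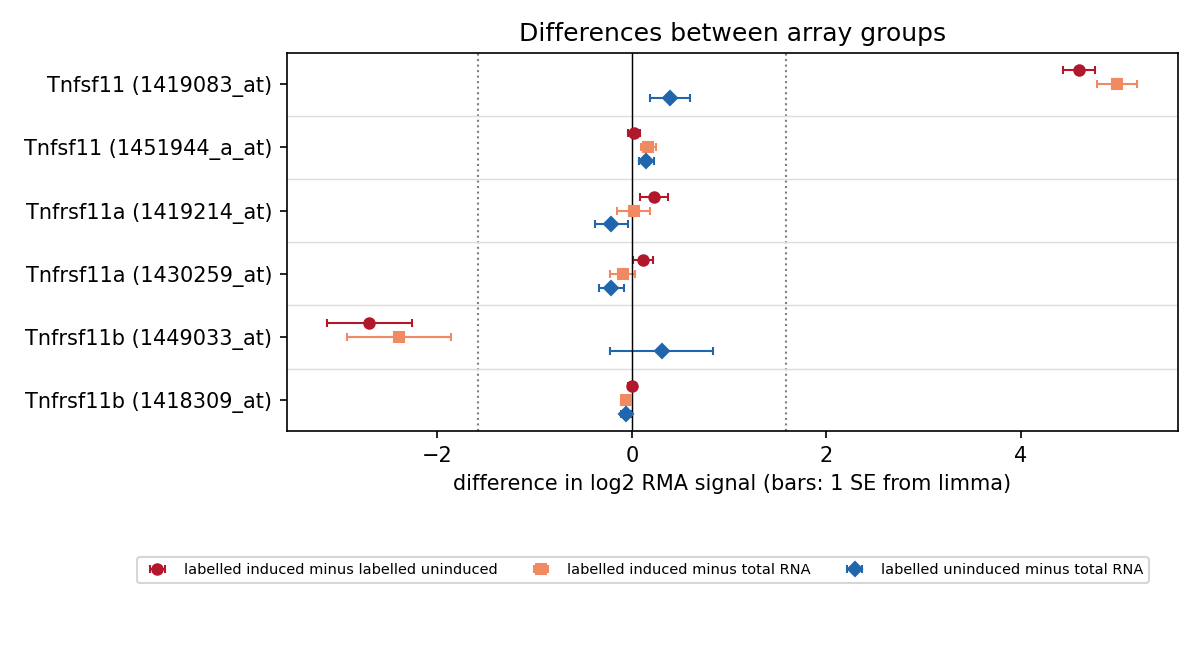
Difference in log2 RMA signal (horizontal axis) of the 6 probe sets between array groups, with bars of 1 SE from limma and dotted lines at a 3-fold difference. Tnfsf11 on 1419083_at (4.60 and 4.99) and Tnfrsf11b on 1449033_at (-2.70 and -2.39) lie beyond the dotted lines for the labelled-induced RNP-IPs, while all 6 differences of the labelled-uninduced RNP-IPs from total RNA lie between them.

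Beads without induced AUF1 adsorb some mRNA too, and the labelled-uninduced RNP-IPs were compared with total RNA to see whether this background favoured one of the 3 genes. None of the 6 probe sets passed a fold of 3 and an adjusted p under 0.5 from limma in this comparison, in which 1.82% of all probe sets did (0.891% higher and 0.933% lower). Only 1449033_at of Tnfrsf11b was above the background limit in these arrays. The others, both probe sets of Tnfrsf11a among them, were below it on both sides, so they could hardly show a preference of the beads. Tnfsf11 on 1419083_at had a log2 difference of 0.39 (SE 0.20, 95% interval -0.27 to 1.06, adjusted p = 0.672 from limma), between signals that were not well above background. Tnfrsf11b on 1449033_at, the member with signals well above background on both sides, had one of 0.31 (SE 0.53, 95% interval -1.43 to 2.04, adjusted p = 0.974 from limma). Its direction rested on 1 library, since the log2 difference was -0.03 without RNP-IP 1 labelled uninduced and 0.64 without RNP-IP 2. The interval for Tnfrsf11b reaches past 3-fold on its upper side, so a difference of that size lay within the error for OPG. Tnfrsf11a had log2 differences of -0.21 (95% interval -0.77 to 0.35) and -0.21 (95% interval -0.63 to 0.21) on its 2 probe sets, with adjusted p = 0.868 and 0.747 from limma. Total RNA was hybridized once, and its spread was taken to be that of the RNP-IPs.

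The mRNAs for RANK's signalling chain were mostly present and mostly not called. RANK recruits TRAF6, which activates the TAK1 and IKK kinases, NF-kappa B and the MAP kinases and, in osteoclast precursors, the transcription factor NFATc1. Of 35 listed genes 32 were measured, 27 of them above the limit in some array. On the brightest probe set of each gene, none was called higher in the labelled-induced RNP-IPs, 1 was called lower and 31 were not called. Other probe sets of these genes do not enter the counts and may differ. The shares over all genes were 1.32% called higher and 2.36% lower. The median log2 difference was -0.06 beside 0.0016 over all genes. Without RNP-IP 2 labelled induced 1 gene was called higher and 3 lower, and without either labelled-uninduced RNP-IP 2 were called lower.

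The lower gene was Gab2, an adaptor that binds RANK and is needed for osteoclast formation. Gab2 read 5.33 and 5.80 in the labelled-induced RNP-IPs, 7.53 and 8.06 in the labelled-uninduced ones and 8.03 in total RNA. The log2 difference was -2.30 (SE 0.25, adjusted p = 0.113 from limma). Both further probe sets of Gab2 were below the limit in every array. Traf6, named for its place in the chain, read 5.29 and 5.28 against 6.00, 5.72 and 5.94 and was not called. Nfatc1 read 6.33 and 5.97 against 5.47, 5.50 and 6.20, and its groups overlapped. Ppp3ca, a catalytic subunit of calcineurin, which activates NFATc1, read 10.48 and 10.09 against 8.89, 8.83 and 8.88, a log2 difference of 1.42 that did not reach 3-fold. Traf6, Nfatc1 and Ppp3ca were chosen after their values were seen.

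Genes known to act on Tnfsf11 or Tnfrsf11b in stromal cells included 3 that were called lower. Of 22 listed genes 21 were measured. With each gene read on its most changed probe set instead of its brightest, 2 were called higher and 2 lower. On the brightest probe set of each, none was called higher, 3 were called lower and 18 were not called. Over all genes 1.32% were called higher and 2.36% lower. The median log2 difference of the list was -0.18. The 3 became 1 without RNP-IP 1 labelled induced, without either labelled-uninduced RNP-IP and with the replicate number as a block. Il6st, the gp130 subunit through which the interleukin 6 family signals, read 7.15 and 6.35 in the labelled-induced RNP-IPs, 9.14 and 9.31 in the labelled-uninduced ones and 9.54 in total RNA, with a log2 difference of -2.58 (SE 0.29, adjusted p = 0.116 from limma). It was not called with the replicate number as a block (log2 -2.48, adjusted p = 0.503 from limma), and another probe set of Il6st above the limit, at -0.62, was not called.

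Ptgs2, the prostaglandin synthase COX-2, and Creb1, a factor that responds to cyclic AMP, each disagreed between their own probe sets. The brightest probe set of Ptgs2 read 6.40 and 6.95 against 8.29, 8.45 and 10.61, a log2 difference of -2.44 (adjusted p = 0.456 from limma), and its other probe set read 6.80 and 7.50 against 4.46, 4.20 and 5.82 and was called higher, with a log2 difference of 2.32 (adjusted p = 0.314 from limma). Creb1 had 2 probe sets called lower, with log2 differences of -1.80 and -1.73, and 1 called higher, with 2.13 (adjusted p = 0.118 from limma). Leaving out any 1 of the 4 RNP-IPs ended the call of the brightest Ptgs2 probe set (log2 differences of -2.86 to -2.17). That of Creb1 ended with the replicate block (-2.28) and on leaving out RNP-IP 1 labelled induced (-1.36) or either labelled-uninduced RNP-IP (-1.49 and -1.65). The vitamin D receptor gene Vdr, chosen after its values were seen, read 4.70 and 4.57 against 5.36, 4.86 and 6.08 and was not called.

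None of the 9 genes for other binding partners of RANKL and OPG or for proteases that release RANKL from the membrane was called, but without RNP-IP 2 labelled induced 1 was called higher and 1 lower. With every array kept, the shares over all genes were 1.32% called higher and 2.36% lower. The largest differences were those of Lgr4, another receptor of RANKL, with a log2 difference of -1.45 (SE 0.65, adjusted p = 0.603 from limma), and of Sdc1, a heparan sulphate proteoglycan of a kind that binds OPG, with 1.13 (SE 0.47, adjusted p = 0.558). Lgr4 read 7.78 and 9.28 in the labelled-induced RNP-IPs and 10.60, 10.06 and 9.27 in the controls, so its groups overlapped. Further probe sets of Sdc1 with signals above the limit had log2 differences of 0.65 and -0.26, and neither was called. Tnfsf10, the death ligand TRAIL that OPG also captures, was below the limit in every array.

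**Figure D3:**
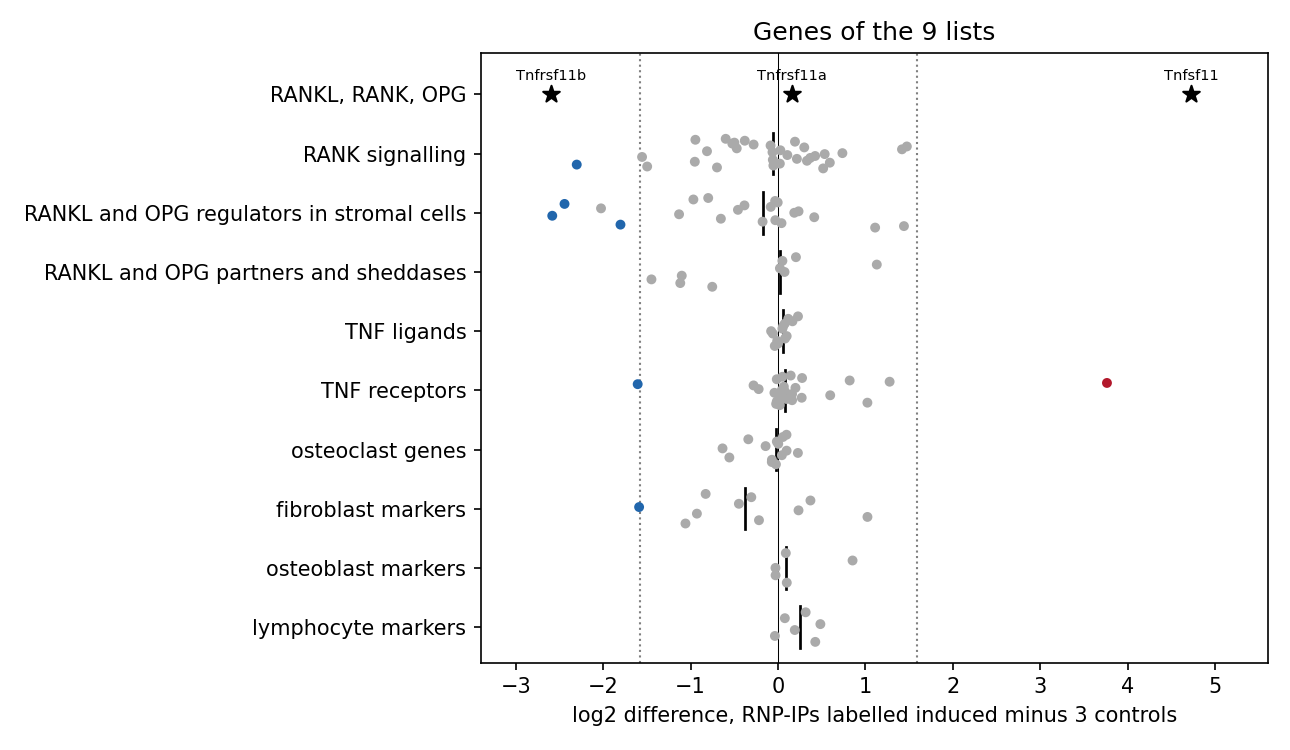
Log2 difference (horizontal axis) between the labelled-induced RNP-IPs and the 3 controls for the measured genes of 9 lists, 1 marker per gene on its brightest probe set, with red for called higher, blue for called lower, grey for not called, a black bar at each list's median and dotted lines at 3-fold. Stars mark the brightest probe sets of Tnfsf11 (4.73), Tnfrsf11a (0.16) and Tnfrsf11b (-2.60), which are shown without a call.

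The other TNF ligands were mostly below the background limit. Of 17 listed ligands 13 were measured, none was called and none was above the background limit in either labelled-induced RNP-IP. Tnfsf11 was chosen on this comparison, so its contrast with them is no result. The largest differences were 0.23 for Tnfsf9 and 0.16 for Tnfsf4, both below the limit in all 5 arrays. Among 25 other TNF receptors 1 was called higher and 1 lower, and 8 were above the limit in some array. The shares over all genes were 1.32% higher and 2.36% lower, so counts this small say little about either list.

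The higher one was the death receptor gene Tnfrsf21, at 7.68 and 7.31 in the labelled-induced RNP-IPs, 3.53 and 3.70 in the labelled-uninduced ones and 3.97 in total RNA. Like Tnfsf11 it was above background in the labelled-induced RNP-IPs alone, which bounds the difference at 5.08-fold or more (adjusted p = 0.067 from limma). Its other probe set was below the limit throughout. The lower one was Tnfrsf1b, the second TNF receptor, at 5.43 and 5.02 against 6.37, 6.55 and 7.58, a log2 difference of -1.61 (SE 0.45, adjusted p = 0.34 from limma). The call of Tnfrsf1b ended with cyclic loess, with the replicate block and on leaving out either labelled-induced RNP-IP, RNP-IP 2 labelled uninduced or total RNA, with log2 differences of -1.81 to -1.23.

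Most markers of osteoclasts, osteoblasts and lymphocytes were below the background limit. Of 14 osteoclast genes, 2 to 4 per array were above it, with Tcirg1 (5.94 to 6.94) and Trem2 (5.37 to 5.51) above it in all 5, and Acp5, Ctsk, Calcr, Oscar and Dcstamp, which define the mature cell, were below the limit in all 5 arrays. Sums of log2 signals compare arrays within a list only. For osteoclast, osteoblast and lymphocyte markers they hold mostly signals below the limit, so they are not read as marker content. Over all 14 osteoclast genes the log2 signals summed to 57.45 and 57.85 in the labelled-induced RNP-IPs. They summed to 57.92 and 59.02 in the labelled-uninduced ones and to 60.02 in total RNA. None of the 14 was called, beside 1.32% of all genes called higher and 2.36% lower. Of 5 measured osteoblast markers Phex was above the limit in all 5 arrays (5.24 to 7.05), and Sp7, Ibsp, Alpl and Dmp1 were below it in every array. All 5 measured osteoblast markers, Phex among them, summed to 20.46 and 21.81, then 20.46 and 20.48, and 19.53 in the same order. Of 6 measured lymphocyte markers Cd3e (5.16) and Cd8a (5.34) passed the limit in RNP-IP 1 labelled induced and no marker did in another array, with sums of 24.64 and 24.24, then 23.15 and 22.37, and 23.43. Their part in the signal of Tnfsf11 was not tested. The fibroblast markers summed to 106.83 and 109.19, then 110.18 and 111.78, and 113.33, and Pdgfrb, a receptor of platelet-derived growth factor, was called lower with a log2 difference of -1.59 (adjusted p = 0.426 from limma), a call that ended with cyclic loess, with the replicate block and on leaving out any 1 array other than RNP-IP 2 labelled induced (log2 differences of -1.68 to -0.82).

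The genes whose course over the 5 arrays was most like that of Tnfsf11 were Dus4l, 4732491K20Rik, Mbnl3, Pcsk6 and Man2a2. Likeness was measured as the Euclidean distance between log2 values centred on their own mean over the 5 arrays, and it ran from 0.58 for Dus4l to 1.17 for Man2a2. Dus4l, related to the tRNA dihydrouridine synthases, read 8.04 and 7.77 in the labelled-induced RNP-IPs and 3.78, 3.57 and 3.48 in the controls, and it shared with Tnfsf11 that all 3 controls were below the limit. Mbnl3, a muscleblind-like RNA-binding protein, was well above background everywhere, at 10.22 and 11.06 against 6.30, 5.38 and 6.12. The proprotein convertase gene Pcsk6 and the Golgi mannosidase gene Man2a2 were also above the limit in all 5 arrays, so that their measured folds of 16.9 and 12.9 are not bounds.

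For Tnfrsf11b the nearest genes were Prdm2, Ints2, Cdc14a, Pign and Mllt3, with smaller distances of 0.20 to 0.31. Prdm2, a zinc finger protein with a methyltransferase domain, read 4.73 and 5.63 in the labelled-induced RNP-IPs and 8.07, 7.41 and 7.64 in the controls. Ints2, a subunit of the Integrator complex, read 5.34 and 6.31 against 8.66, 8.01 and 8.04. In all of these 5 genes RNP-IP 1 labelled induced was the lowest array and RNP-IP 1 labelled uninduced the highest, as in Tnfrsf11b. The neighbours of both members were found with the same 5 arrays, so their likeness is a description and no further reading of either gene.

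**Figure D4:**
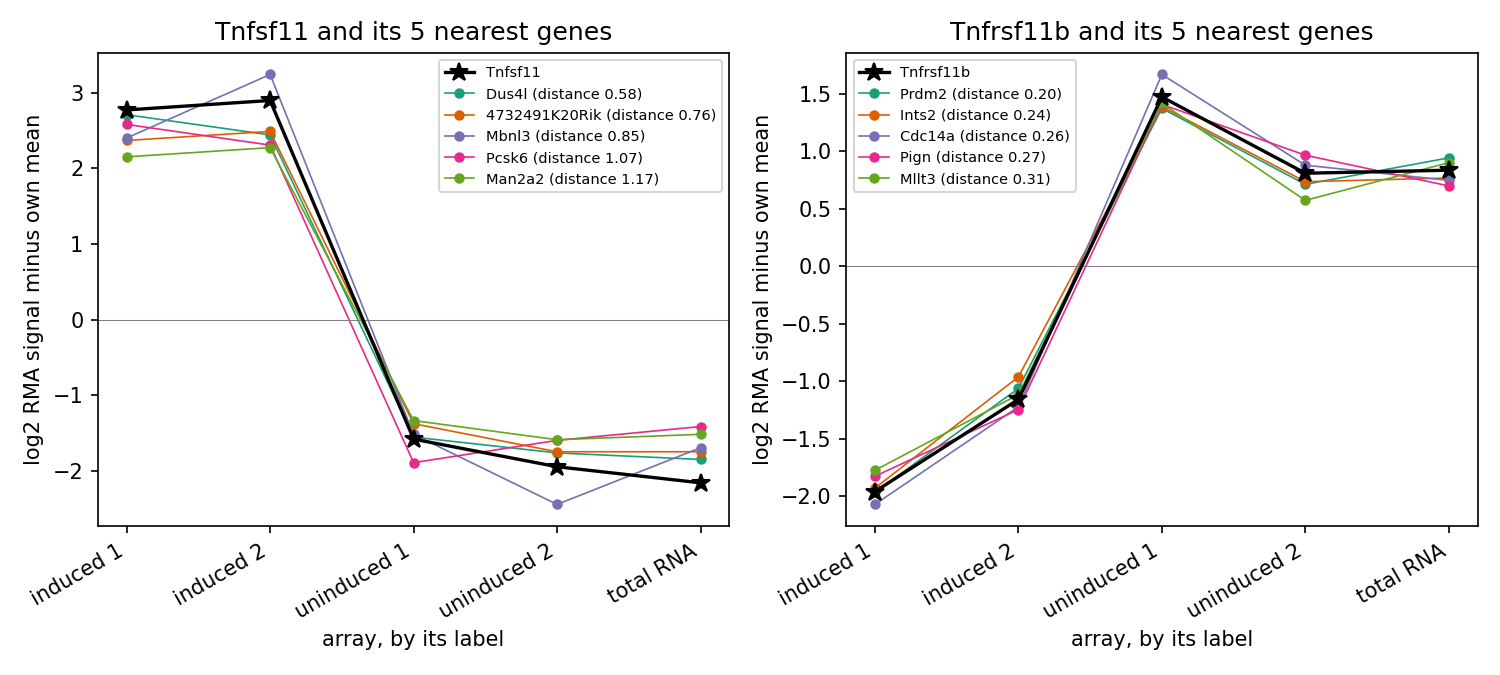
Log2 RMA signal minus each gene's own mean over the 5 arrays (vertical axis), array by array (horizontal axis, lines only guide the eye), for Tnfsf11 (left) and Tnfrsf11b (right), each with its 5 nearest genes. Tnfsf11 and its neighbours are high in both labelled-induced RNP-IPs, and Tnfrsf11b and its neighbours are lowest in RNP-IP 1 labelled induced.

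In the labelled-uninduced RNP-IPs against total RNA, only RANK signalling and the regulators among the same lists held calls. Of 32 measured genes of RANK signalling 2 were called lower, and of 21 regulators 2. Over all genes 1.26% were called higher and 1.36% lower. In RANK signalling Rela, a subunit of NF-kappa B, and Jun, a subunit of AP-1, were lower in the labelled-uninduced RNP-IPs, with log2 differences of -2.61 and -2.11 (adjusted p = 0.387 and 0.183 from limma). Among the regulators Ptgs2 (-2.24, adjusted p = 0.243 from limma) and the receptor gene Lifr (-2.17, adjusted p = 0.251) passed the same rule. Lifr read 4.27 and 3.79 in the labelled-uninduced RNP-IPs, not well above background, and 6.20 in the single total RNA array, which bounds its difference at 2.07-fold or more, short of the fold of 3. In these genes total RNA was the highest of the 5 arrays. Rela read 5.17 and 6.37 in the labelled-uninduced RNP-IPs and 8.38 in total RNA, and Jun read 5.93 and 6.24 against 8.19. Rela, Jun and Lifr were chosen after their values were seen.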

How the data were processed

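RNA of 4 RNP-IPs and 1 total RNA sample was amplified by two-cycle labelling for Affymetrix Mouse 430 2.0 chips. The authors applied RMA, in a version not given, and deposited 1 log2 value per array for each of 45101 probe sets, with no presence calls. All 5 columns were used as deposited. Limma 3.58.1 (R 4.3.3) was fitted to all probe sets with 2 groups (2 RNP-IPs labelled induced against 3 controls, 3 residual degrees of freedom) or 3 groups (2 residual degrees of freedom), with Benjamini-Hochberg adjustment over all probe sets. Calls required a 3-fold difference together with an adjusted p under 0.5. Tested on simulated data with 45101 probe sets, the first comparison called 87 of 100 probe sets changed 4-fold, 89 of 100 changed 16-fold and 59 unchanged ones. The simulated noise was independent between probe sets and arrays. It lacked the shared deviations and equal values of the real arrays, so these rates need not hold there. The number of arrays limits the precision.

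Names came from the platform annotation, updated by the GRCm38.p6 RefSeq gene table. Of the probe sets 34958 had 1 gene, 932 several and 9211 none, and each of 18194 genes was represented by its brightest probe set. Genes were named by a rule: the members, up to 4 called genes per list with the largest difference (up to 2 where none was called), the 5 genes nearest to Tnfsf11 and to Tnfrsf11b, Hnrnpd and the Gapdh controls. The 10 lists hold 170 genes, 158 of them measured. The members, lists and rules were chosen with earlier results of these data known. Alternatives were median centring, cyclic loess, the probe sets of the highest mean signal alone, leaving out each array, other controls, a replicate block, another threshold, another probe set per gene and another background limit.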

Additional observations from a re-analysis of the deposited data

How the results depend on the processing

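The log2 difference of Tnfsf11 (1419083_at) between the RNP-IPs labelled induced and the controls ran from 4.60 to 4.88 over the alternatives tried and that of Tnfrsf11b (1449033_at) from -3.00 to -2.20, and with a background limit of log2 5 the bounds became 8.30-fold and 4.33-fold. With the brighter probe sets alone Tnfrsf11a and the second probe sets had no value, and the uninduced comparison cannot be made without total RNA. Leaving out total RNA and using the uninduced RNP-IPs alone as controls are the same fit. The count of called probe sets moved more: 749 were lower in the RNP-IPs labelled induced, and leaving out 1 array gave 383 (without RNP-IP 2 labelled uninduced) to 1069, with 408 without RNP-IP 1 labelled induced. The 523 higher ones became 371 to 570. In the RNP-IPs labelled uninduced against total RNA, 402 higher became 336 to 585 and 421 lower became 339 to 1013, the last without RNP-IP 2 labelled uninduced. With the replicate number as a block on the 4 RNP-IPs, 286 probe sets were higher and 368 lower, and the members' log2 differences were 4.60, 0.23 and -2.70. Same-numbered deviations correlated at -0.50 across probe sets, so the numbers were not taken as pairs, and a block with the numbers crossed, chosen after seeing the data, gave 647 and 968. With the adjusted p from limma required to be under 0.05, 0 probe sets were higher and 0 lower in both comparisons, beside 4836 and 4896 at an unadjusted p under 0.05. Under these alternatives no gene list had more than 4 genes called in 1 direction. Signals under log2 5.15 bound folds only.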

Other observations

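Genes with exactly 1 probe set called, at 3-fold and an adjusted p under 0.5 from limma, were common in these arrays. Tnfsf11 and Tnfrsf11b, each with 1 probe set beyond 3-fold, were not alone in this. A further probe set just short of a threshold counts as not called, so the counts do not give its fold. Of 422 genes with a probe set higher by this rule in the labelled-induced RNP-IPs, 334 had more than 1 probe set, and in 297 of these (88.9%) exactly 1 was called. In 62 of the 297 all other probe sets of the gene were below the background limit in every array, as for Tnfsf11. In the rest of the 297 at least 1 probe set not called higher had a signal above the limit in some array. For genes called lower the counts were 605, 542, 467 (86.2%) and 136. These counts were made after the values of the members had been seen, and where the probe sets lie along their mRNAs was not used here.

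In 24851 of the 45101 probe sets (55.1%) at least 2 arrays held exactly the same value, as in 1418309_at of Tnfrsf11b, which has 1 value in all 4 RNP-IPs. For such probe sets the spread between replicates can be 0, and their SE rests on the other arrays and on the spread that limma borrows from all probe sets.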
